A study of Mus musculus with 10 samples.

Results

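The 9 genes E330017A01Rik, Il7r, 1700012B07Rik, Kcnk7, Ttyh1, C1s1, Gm17349, Il34 and Pipox were chosen by their ATAC-seq signal: they stood out in the columns of the library labelled Oct4 against the columns of the Flag control or of the Sox2 library. They are 9 of the 21965 genes in the deposited table, and Pou5f1, the gene that encodes Oct4, was left aside. Because the Oct4, Flag and Sox2 columns picked the genes, values in those columns are given as a description.

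ATAC-seq uses a transposase to place sequencing adapters into accessible DNA, so a higher signal over a gene stands for more open chromatin there. The cells were mouse embryonic fibroblasts (MEFs) of ICR strain from embryonic day 13.5, carrying a transgene in which the Oct4 promoter drives GFP, and about 50000 cells went into each library. All were infected with pMXs retroviruses and kept in mESC medium. Of the 10 conditions, Flag was the control, and cells of the others received Sox2, Klf4, Oct4, the L80A mutant of Oct4 (Oct4-L80A), Sox2 with Klf4 and Oct4 (SKO), Sox2 with Klf4 and L80A (SKO-L80A), SKO with shBrg1 (SKO+shBrg1), SKO-L80A supplemented with 50 µg/ml of vitamin C (SKO-L80A+Vc), and SKO-L80A with Gadd45a (SKO-L80A+Ga). Each condition has 1 library and 2 columns of signal. How these columns are related, the collection day and the number of cultures are details not given in the sources used here. Both column values are printed in the order of the table, and no difference below has a replicate check or a significance test.

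Oct4 is a POU-domain transcription factor of the early embryo and of pluripotent cells. It reads the 8-base octamer motif, and at many sites it binds beside Sox2, an HMG-box factor, on a composite of a Sox element and an octamer. In reprogramming, these factors meet fibroblast chromatin in which most such sites are closed. None of the 9 genes belongs to the core pluripotency network: they encode metabolic and membrane proteins, a cytokine, a cytokine receptor, a complement protease and little studied products.

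RefSeq (GRCm38.p6, the assembly of build mm10) held 7 of the 9 genes under the table's symbol, and it held E330017A01Rik as a synonym of Ftdc2. Promoter windows from 250 bases before to 50 bases after the annotated start were matched for 7 genes. They are shown for Pipox, which holds the letters of a composite Sox and octamer element, for E330017A01Rik, which had the largest difference from Flag, and for Kcnk7, which was the member called higher in the Klf4 library. Each runs 5′ to 3′ along its gene, and capitals mark the motif matches named in the next paragraph.
Pipox, minus strand, chr11:77893823-77894122: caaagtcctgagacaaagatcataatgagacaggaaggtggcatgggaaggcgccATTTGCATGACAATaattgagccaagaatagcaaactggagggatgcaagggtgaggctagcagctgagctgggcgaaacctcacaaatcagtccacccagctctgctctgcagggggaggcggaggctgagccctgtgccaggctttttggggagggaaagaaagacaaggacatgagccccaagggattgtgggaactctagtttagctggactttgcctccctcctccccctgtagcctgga
E330017A01Rik, minus strand, chr16:58638354-58638653: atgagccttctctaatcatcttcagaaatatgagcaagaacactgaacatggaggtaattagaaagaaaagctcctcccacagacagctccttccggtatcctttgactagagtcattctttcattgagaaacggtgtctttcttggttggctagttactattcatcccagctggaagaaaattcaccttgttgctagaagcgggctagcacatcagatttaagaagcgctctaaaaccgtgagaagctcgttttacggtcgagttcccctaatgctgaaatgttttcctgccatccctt
Kcnk7, plus strand, chr19:5704221-5704520: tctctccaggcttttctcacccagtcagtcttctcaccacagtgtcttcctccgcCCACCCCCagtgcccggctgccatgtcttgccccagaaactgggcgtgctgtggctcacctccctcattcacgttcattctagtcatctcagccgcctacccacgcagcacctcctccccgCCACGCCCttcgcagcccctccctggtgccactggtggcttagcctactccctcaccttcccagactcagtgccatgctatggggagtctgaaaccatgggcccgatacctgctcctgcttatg

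Each window was searched on both strands for the octamer ATGCAAAT, the Sox core CATTGT, the Klf motif GGGNGTGG and the AP-1 motif TGANTCA. The octamer occurs in 1.74% of the 32851 RefSeq promoter windows of this length, and among the 7 genes it was found in Pipox, on the strand opposite to the gene, at positions -195 to -188 from the start. There it adjoins letters of a Sox element: read on that opposite strand, ATTGT is followed by 1 further base and then by ATGCAAAT. This arrangement was searched for after the sequence had been seen. It was present in 6 windows of 5 genes, or 0.0183% of all windows: Pipox, Nrarp, Gm38966, Gm34201 and 2 starts of Exoc1. SKO against Klf4 is a contrast that did not choose Pipox, and 5.45% of all genes were called higher in it. There the log2 difference was 2.29 at Pipox, 1.60 at Nrarp and 1.14 at Exoc1. Relative to the all-gene median these were 1.80, 1.11 and 0.64. In the Oct4-labelled library Nrarp and Exoc1 were not called higher than in Flag, with log2 differences of 0.95 and 0.41. Against Sox2 they had 0.15 and 0.35, beside an all-gene median of 0.34. Gm38966 and Gm34201 had no signal values. The Sox core (12.6% of all windows) was found in 1700012B07Rik, and the Klf motif (17.6%) in 1700012B07Rik, Kcnk7, Ttyh1 and C1s1. The AP-1 motif (7.81%) was in none of the 7 genes, and the windows of E330017A01Rik and Il7r held none of these letters. A match describes the letters of the window, and the table does not say over which part of a gene its signal was counted.

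The libraries set limits that touch every value below. The gene Sox2 had a signal of 62.9 and 55.2 in the Oct4-labelled library, which its label does not name, 75.5 and 87.1 in the Sox2 library, and 22.0 to 72.2 in the conditions with SKO or SKO-L80A. It had 2.37 and 5.47 in Oct4-L80A and 2.73 and 5.12 in Flag. Pou5f1 had 30.8 and 24.2 in the Oct4-labelled library, 19.0 and 49.6 in Oct4-L80A, 6.79 to 27.5 in the conditions with SKO or SKO-L80A, and 0.812 and 1.12 in Flag. The effect of Sox2 on the 9 genes in the Oct4-labelled library and that of Oct4 can therefore not be told apart there. Sox2 and Pou5f1 encode factors delivered by retrovirus, and the part of the delivered copies in the signal over these genes was not tested. The median over all genes ranged from 3.38 to 11.8 between columns, being lowest in column 1 of Oct4-L80A and highest in column 1 of SKO+shBrg1. Differences are therefore also given relative to the median difference of all genes in the same comparison.

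Pipox encodes a peroxisomal oxidase of sarcosine and pipecolic acid, and E330017A01Rik, under its RefSeq name Ftdc2, belongs to the ferritin-domain genes. Pipox (ENSMUSG00000017453, chromosome 11, 77880614 to 77893872) had a signal of 1.43 and 2.12 in Flag, 3.84 and 5.99 in Sox2, 2.87 and 4.17 in Klf4, 11.0 and 10.5 in the Oct4-labelled library, and 1.61 and 2.83 in Oct4-L80A. Its signal was 21.8 and 14.1 in SKO, 16.8 and 14.4 in SKO-L80A, 25.2 and 15.3 in SKO+shBrg1, 13.8 and 10.6 in SKO-L80A+Vc, and 16.0 and 11.0 in SKO-L80A+Ga. Pipox was thus low in the Flag, Klf4 and Oct4-L80A libraries, intermediate in Sox2 and high in all 5 conditions with SKO or SKO-L80A, with no overlap of columns between these 5 and the first 3.

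E330017A01Rik (ENSMUSG00000055789, chromosome 16, 58635262 to 58638403) showed the widest range of the 9 genes on the log2 scale, though not in the signal itself, where Ttyh1 had it. It had 0.196 and 0.135 in Flag, 0.639 and 1.28 in Sox2, 0.795 and 0.302 in Klf4, 8.47 and 7.94 in the Oct4-labelled library, and 0.672 and 0.508 in Oct4-L80A. It had 17.3 and 11.7 in SKO, 12.1 and 12.1 in SKO-L80A, 21.5 and 9.42 in SKO+shBrg1, 9.37 and 7.18 in SKO-L80A+Vc, and 13.2 and 5.30 in SKO-L80A+Ga. Among all genes of a library its percentile was 11.2 in Flag, 20.7 in Oct4-L80A, 53.0 in the Oct4-labelled library and 60.3 in SKO, as means of both columns. The library scaling does not enter these ranks. Whether more cells held an open gene or each cell held a more open one cannot be told apart in libraries from bulk cells.

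Kcnk7 and Ttyh1 encode membrane proteins. Kcnk7 is a member of the two-pore domain potassium channel family, and Ttyh1 is a tweety-family protein known from neural progenitors. Kcnk7 (ENSMUSG00000024936, chromosome 19, 5704471 to 5707984) had 2.72 and 2.94 in Flag, 4.19 and 4.71 in Sox2, 6.42 and 9.71 in Klf4, 13.6 and 13.8 in the Oct4-labelled library, and 2.19 and 3.50 in Oct4-L80A. In the combinations it had 26.2 and 17.3 in SKO, 23.6 and 21.0 in SKO-L80A, 28.2 and 17.9 in SKO+shBrg1, 13.1 and 11.1 in SKO-L80A+Vc, and 19.1 and 16.3 in SKO-L80A+Ga. Both Klf4 columns of Kcnk7 lay above those of Flag and Sox2 and below those of the Oct4-labelled library. Its annotated end overlaps Ehbp1l1, which had 5.07 and 6.17 in Flag, 4.23 and 4.28 in the Oct4-labelled library and 11.8 and 9.90 in SKO. Whether signal was counted for both genes was not tested.

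Ttyh1 (ENSMUSG00000030428, chromosome 7, 4119530 to 4135407) had 3.79 and 5.44 in Flag, 4.33 and 8.82 in Sox2, 5.52 and 5.51 in Klf4, 20.3 and 16.2 in the Oct4-labelled library, and 2.94 and 6.81 in Oct4-L80A. It had 34.4 and 21.9 in SKO, 30.9 and 29.0 in SKO-L80A, 41.2 and 25.1 in SKO+shBrg1, 22.9 and 19.0 in SKO-L80A+Vc, and 28.2 and 19.9 in SKO-L80A+Ga. The Flag, Sox2, Klf4 and Oct4-L80A columns of Ttyh1 lay below every column of the other 6 conditions. The minimum signal was 6.92, the median of all values. Of 6 neural marker genes, 1 reached it in Flag, 4 in the Oct4-labelled library and 4 in SKO. Where Ttyh1 was low, 3 reached it in Sox2, 3 in Klf4 and 2 in Oct4-L80A. The summed signals of these markers were 23.0 and 38.8 in Flag, 36.0 and 53.5 in the Oct4-labelled library, and 63.7 and 57.4 in SKO. They were 24.2 and 45.7 in Sox2, 34.7 and 46.1 in Klf4, and 20.2 and 49.2 in Oct4-L80A. These counts and sums also follow the scale of the libraries. The all-gene median was 4.45 and 7.55 in Flag, 6.33 and 8.19 in the Oct4-labelled library, and 10.6 and 8.89 in SKO. The part of the neural markers in the values of Ttyh1 was not tested.

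**Figure D1:**
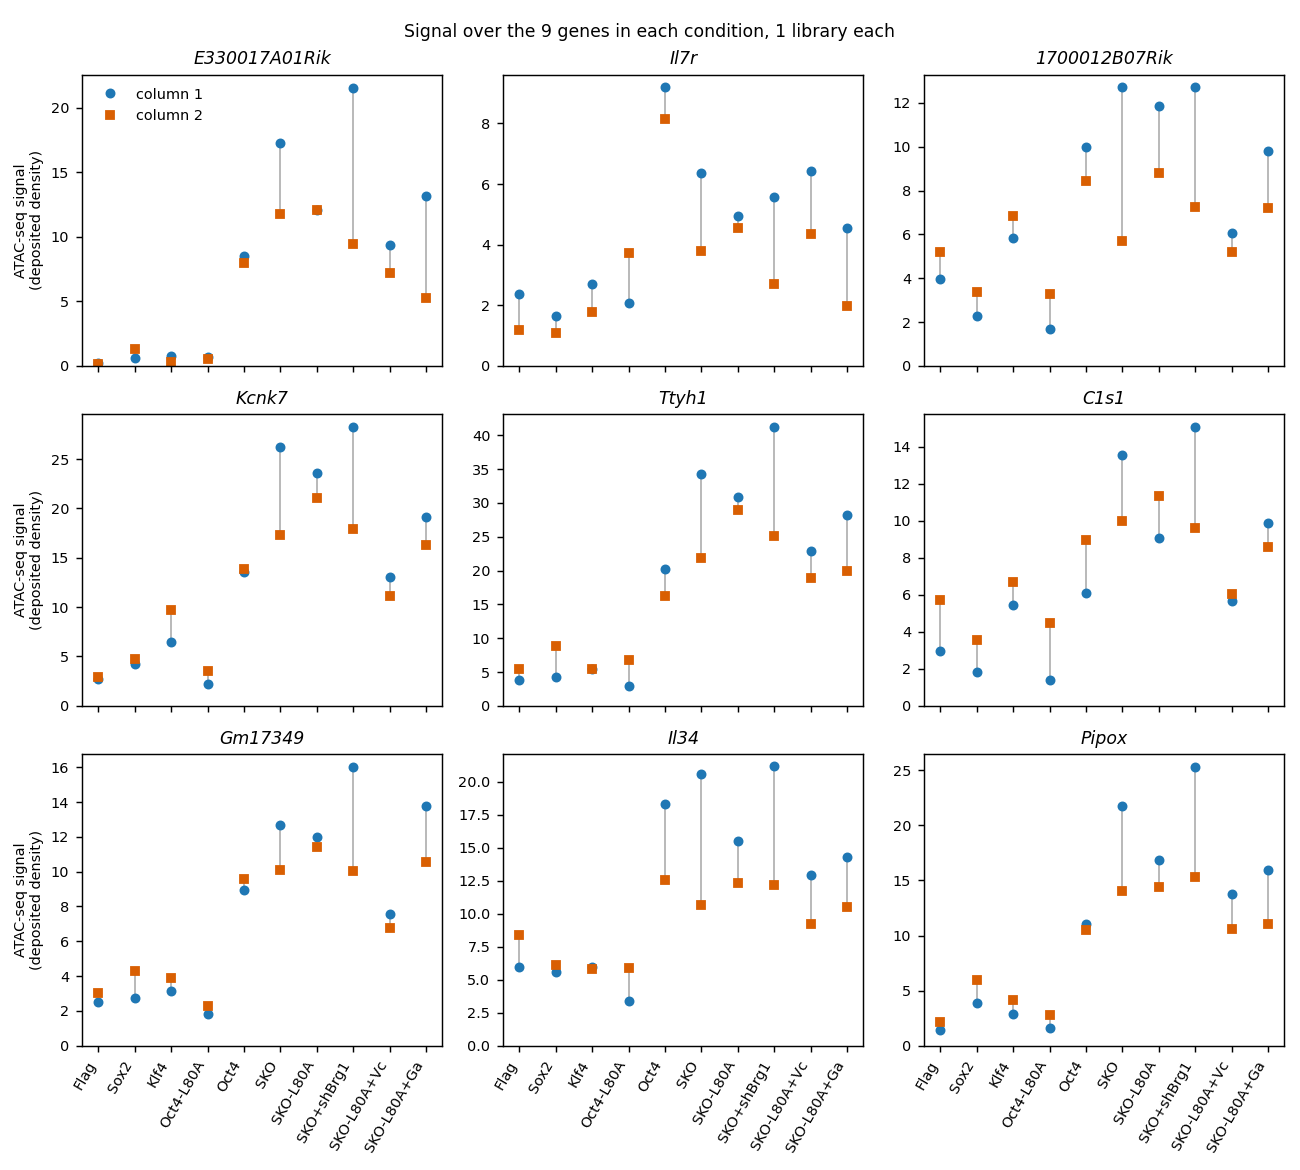
ATAC-seq signal over each of the 9 genes (vertical axis, deposited density, linear and starting at 0) in the 10 conditions, with a circle for column 1, a square for column 2 and a line joining them. In Ttyh1, Pipox, Kcnk7, Gm17349, Il34 and E330017A01Rik the columns of the 5 conditions with SKO or SKO-L80A lie above those of Klf4 and Oct4-L80A, while Il7r is highest in the Oct4-labelled library, at 9.21 and 8.14.

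Il34, Il7r and C1s1 encode proteins of immune signalling and defence. Interleukin 34 is a ligand of the CSF1 receptor of macrophages and microglia, Il7r encodes the interleukin-7 receptor alpha chain of lymphoid cells, and C1s1 encodes a serine protease of the first complement component. Il34 (ENSMUSG00000031750, chromosome 8, 110741829 to 110805949) had 5.97 and 8.38 in Flag, 5.56 and 6.11 in Sox2, 5.98 and 5.82 in Klf4, 18.4 and 12.6 in the Oct4-labelled library, and 3.39 and 5.89 in Oct4-L80A. It had 20.6 and 10.7 in SKO, 15.5 and 12.4 in SKO-L80A, 21.2 and 12.2 in SKO+shBrg1, 12.96 and 9.25 in SKO-L80A+Vc, and 14.3 and 10.5 in SKO-L80A+Ga. The library labelled Oct4 and the combined conditions overlapped in Il34, apart from any column of Flag, Sox2, Klf4 or Oct4-L80A.

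Il7r (ENSMUSG00000003882, chromosome 15, 9506159 to 9529941) was the only one of the 9 genes whose mean of the deposited signal was highest in the Oct4-labelled library. It had 9.21 and 8.14 there, against 2.38 and 1.19 in Flag, 1.65 and 1.09 in Sox2, 2.69 and 1.79 in Klf4, and 2.08 and 3.74 in Oct4-L80A. It had 6.37 and 3.80 in SKO, 4.95 and 4.53 in SKO-L80A, 5.58 and 2.71 in SKO+shBrg1, 6.43 and 4.36 in SKO-L80A+Vc, and 4.56 and 1.98 in SKO-L80A+Ga. Both Oct4 columns of Il7r lay above all 18 other columns, and SKO+shBrg1 and SKO-L80A+Ga overlapped Oct4-L80A. SKO, at 3.80 in its lower column, lay just above the 3.74 of Oct4-L80A.

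C1s1 (ENSMUSG00000038521, chromosome 6, 124530344 to 124542392) was the member with the smallest difference between the Oct4-labelled library and Flag. It had 2.97 and 5.70 in Flag, 1.83 and 3.56 in Sox2, 5.44 and 6.68 in Klf4, 6.12 and 8.98 in the Oct4-labelled library, and 1.40 and 4.48 in Oct4-L80A. It had 13.6 and 10.0 in SKO, 9.06 and 11.3 in SKO-L80A, 15.1 and 9.60 in SKO+shBrg1, 5.65 and 6.03 in SKO-L80A+Vc, and 9.87 and 8.60 in SKO-L80A+Ga. C1s1 stood out against Sox2 rather than against Flag, since its Sox2 columns were the lower ones.

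Gm17349, a predicted gene, and 1700012B07Rik, a gene known by its RIKEN name, have no role that could be given here. Gm17349 (ENSMUSG00000091604) ranged from 1.83 to 4.30 in the Flag, Sox2, Klf4 and Oct4-L80A columns, had 8.96 and 9.56 in the Oct4-labelled library, and ranged from 6.79 to 16.0 in the conditions with SKO or SKO-L80A. 1700012B07Rik (ENSMUSG00000020617, chromosome 11, 109788266 to 109828079) had 3.96 and 5.17 in Flag, 2.30 and 3.36 in Sox2, 5.82 and 6.83 in Klf4, 10.0 and 8.45 in the Oct4-labelled library, and 1.68 and 3.29 in Oct4-L80A. It had 12.7 and 5.70 in SKO, 11.8 and 8.78 in SKO-L80A, 12.7 and 7.24 in SKO+shBrg1, 6.06 and 5.21 in SKO-L80A+Vc, and 9.82 and 7.21 in SKO-L80A+Ga. Gm17349 therefore followed Ttyh1 and Pipox, while 1700012B07Rik overlapped between Klf4 and the combinations.

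Over the 9 genes, the highest mean of the deposited signal was in SKO+shBrg1 for 7, in SKO-L80A for 1 (1700012B07Rik) and in the Oct4-labelled library for 1 (Il7r). This order depends on the scale of the libraries, since column 1 of SKO+shBrg1 also had the highest median of all genes. By mean percentile within a library, 1 gene (Pipox, 68.1) was highest in SKO+shBrg1 and 3 were highest in the Oct4-labelled library: Il34 (71.5), 1700012B07Rik (56.0) and Il7r (54.3). The lowest mean signal was in Flag for 4, in Oct4-L80A for 3 and in Sox2 for 2. Neighbours in these orders often overlapped: in Ttyh1, each of the 5 highest conditions overlapped the next one, and a gap followed between the Oct4-labelled library and Sox2.

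Differences were taken on log2(signal + 0.138), as the mean of both columns, and a gene was called when it differed by at least 2-fold and the higher of its compared values reached 6.92, the median of the table. By this rule 8 of the 9 genes were higher in the Oct4-labelled library than in Flag, where 0.355% of all genes were, and all 9 were higher than in Sox2, where 0.114% of all genes were. These contrasts chose the genes, so nothing is read from the counts. Of all genes, 78 were higher than Flag, 25 higher than Sox2 and 14 higher than both. Those 14 included 8 of the 9 genes, Pou5f1, Filip1, Pou6f1, Asic3 and Egln2. C1s1 was short of 2-fold against Flag, with a log2 difference of 0.83, and 1700012B07Rik was at the limit with 1.00. The folds above Flag, on the scale with the added 0.138, were 27.6 for E330017A01Rik, 5.78 for Pipox, 4.82 for Il7r, 4.67 for Kcnk7 and 3.91 for Ttyh1. The fold of E330017A01Rik depends on the added value, since its Flag signal lies near it: the log2 difference of 4.79 became 3.61 with an added value 4 times larger and 5.38 with one 4 times smaller.

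Sox2 alone and Klf4 alone were each set beside Flag. The Flag and Sox2 columns had served to choose the genes as low there, and 1 of the 9 genes in the Sox2 comparison and 2 in the Klf4 comparison reached the minimum signal that a call needs, so few calls were possible. In Sox2, 0 of the 9 genes were called higher (0.0592% of all genes were) and 0 lower (0.127%). E330017A01Rik and Pipox nevertheless stood above Flag in both Sox2 columns, by 1.80 and 1.39 on the log2 scale, at values below the minimum, while 1700012B07Rik and C1s1 stood below it in both columns, at -0.68 and -0.66. In Klf4, Kcnk7 was called higher, 2.71-fold, where 0.742% of all genes were, and 0 were called lower (0.141% of all genes). The remaining 8 genes lay between -0.26 and 1.08 in Klf4.

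SKO was compared with Klf4 because neither library had served to choose the genes. E330017A01Rik was 22.4-fold higher in SKO, Pipox 4.90-fold, Ttyh1 4.87-fold, Gm17349 3.15-fold, Kcnk7 2.67-fold and Il34 2.48-fold. These 6 of 9 genes were called higher, against 5.45% of all genes, and 0 were called lower, against 0.0546%. Relative to the all-gene median, which differed by 0.50 (0.80 in column 1 and 0.20 in column 2), 4 of 9 were called, against 0.651% of all genes: Kcnk7 (0.92) and Il34 (0.81) ended under the log2 limit of 1. With column 1 alone 8 of 9 were called and with column 2 alone 4. Il7r had a log2 difference of 1.12 below the minimum signal, C1s1 had 0.94, and 1700012B07Rik had 1.11 in column 1 and -0.26 in column 2. The median over the 9 genes was 1.42, or 0.92 relative to all genes. With the larger added value the log2 difference of E330017A01Rik was 3.78 in place of 4.49. SKO against Flag, which shares its control with the choice of genes, gave 7 of 9 genes higher, against 6.18% of all genes, and 5 of 9 relative to all genes, against 1.31%.

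The same contrast was followed through all conditions that the choice of genes did not use. In 6 of the 9 genes, all 10 columns of the conditions with SKO or SKO-L80A lay above all 4 columns of Klf4 and Oct4-L80A. This held for 3.82% of all genes. After each column was divided by its own median it again held for 6 of the 9 genes and for 1.63% of all genes. In Ttyh1 the 10 columns ran from 19.0 to 41.2 and the 4 columns from 2.94 to 6.81. Il7r, 1700012B07Rik and C1s1 overlapped on both scales.

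**Figure D2:**
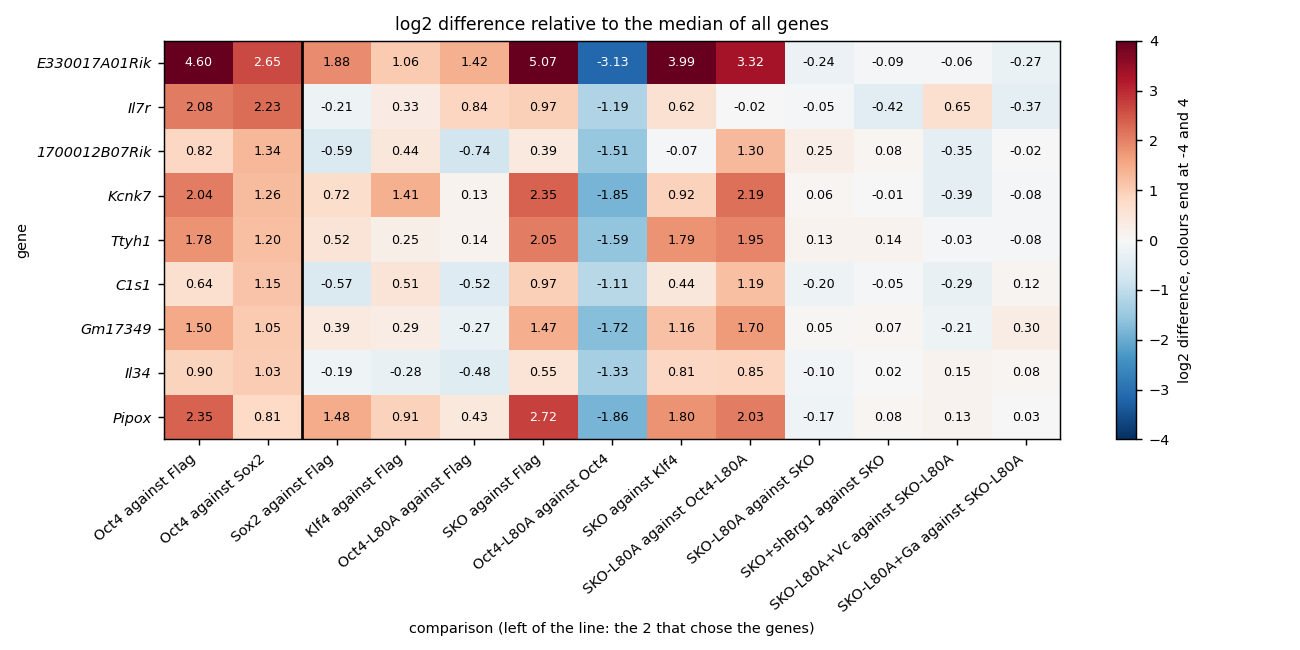
Log2 differences of the 9 genes (rows) in the 13 comparisons (columns), each minus the median difference of all genes and printed in its cell, with red for higher and blue for lower in the condition named before "against". The first 2 columns chose the genes; SKO-L80A against SKO is near 0 in all 9 genes, between -0.24 and 0.25, and Oct4-L80A against Oct4 is negative in all 9.

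Oct4-L80A was compared with the Oct4-labelled library for the effect of the mutation outside the SKO combination. All 9 genes were called lower in Oct4-L80A, also relative to the all-gene median, where 0.769% and 0.2% of all genes were lower. The genes had been chosen for high values in the same Oct4 columns, so a lower value elsewhere follows in part from the choice. Sox2 signal was high in only the Oct4 library of this pair, at 62.9 and 55.2 against 2.37 and 5.47. E330017A01Rik was 11.5-fold lower, Pipox 4.79-fold, Kcnk7 4.75-fold, Gm17349 4.33-fold and Ttyh1 3.95-fold. The smallest difference was in C1s1, 2.84-fold. Against Flag, a library that the choice used, 0 of the 9 genes were called higher in Oct4-L80A (0.00455% of all genes were) and 0 lower (0.0364%), but only 1 of the 9 reached the minimum signal that a call needs. Their differences from Flag ran from -0.90 in 1700012B07Rik to 1.26 in E330017A01Rik, and those of Kcnk7 and Ttyh1 were -0.03 and -0.02. In Oct4-L80A the signal over Pou5f1 itself was 19.0 and 49.6, above both Flag columns.

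SKO-L80A was compared with SKO for the effect of the same mutation when Sox2 and Klf4 were present. Here 0 of the 9 genes were called in either direction, where 0.00911% of all genes were higher and 0.0% lower. Their log2 differences ran from -0.24 in E330017A01Rik to 0.25 in 1700012B07Rik. In all 9 genes the sign differed between columns, and the median of all genes also did, at -0.22 in column 1 and 0.23 in column 2. The difference of Oct4-L80A from the Oct4-labelled library and that of SKO-L80A from SKO were 2.11 apart in Ttyh1, 2.09 in Pipox, 2.31 in Kcnk7 and 3.29 in E330017A01Rik on the log2 scale. In C1s1, the gene with the smallest gap, they were 1.303 apart, or 0.91 relative to all genes. The Oct4-labelled library in the first difference was the one in which the genes were chosen as high. The size of these gaps therefore follows in part from the choice, and no effect of the mutation is read from them. The gaps have no replicate error and were not tested, and the part of the Sox2 signal in them was not tested.

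**Figure D3:**
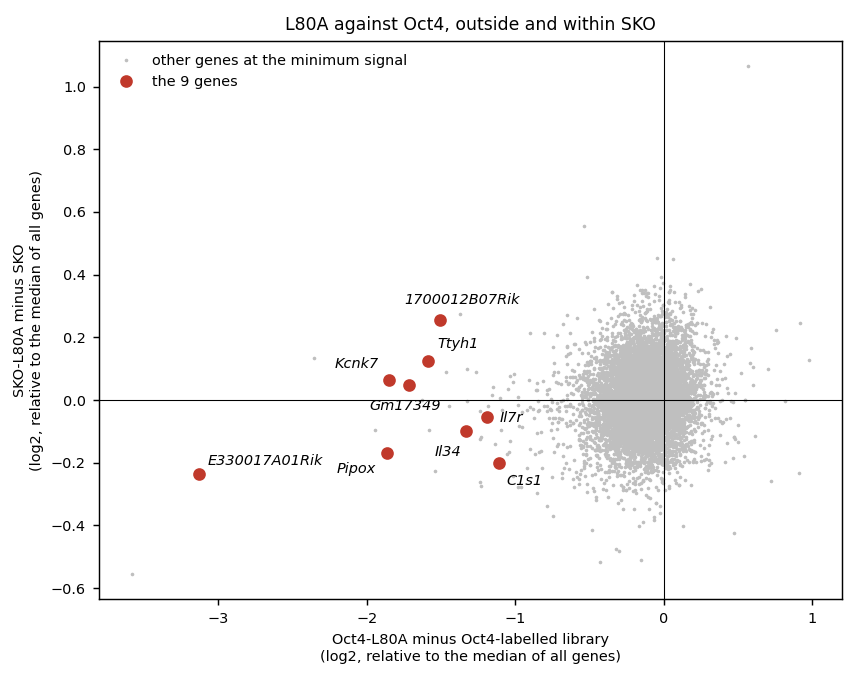
Log2 difference of L80A from Oct4 between the libraries labelled Oct4-L80A and Oct4 (horizontal axis, where the latter alone had a high Sox2 signal) and within SKO (vertical axis), both minus the median of all genes, for the 9 genes (red) and the other genes that reached the minimum signal in both comparisons (grey). Il7r, which stayed below the minimum in the SKO pair, is drawn as well. The 9 genes lie between -3.13 and -1.11 on the horizontal axis and between -0.24 and 0.25 on the vertical axis. They were chosen as high in the Oct4-labelled library, so their place on the horizontal axis follows in part from the choice.

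SKO-L80A was also compared with Oct4-L80A, a pair in which both libraries carry the mutant and neither chose the genes. Kcnk7 was 7.70-fold higher in SKO-L80A, Pipox 6.90-fold, Ttyh1 6.50-fold, Gm17349 5.46-fold and E330017A01Rik 16.9-fold. Of the 9 genes 8 were called higher, against 16.0% of all genes, and 0 lower, against 0.0%. The median of all genes differed by 0.75, and relative to it 7 of 9 genes were called, against 1.14% of all genes. Il34 (0.85) ended under the limit on that scale. Il7r had a log2 difference of 0.73, equal to the shift of all genes at -0.02 relative to it.

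The remaining comparisons asked whether a hairpin against Brg1, the ATPase of the BAF remodelling complexes, vitamin C, a cofactor of dioxygenases such as the Tet enzymes, or Gadd45a, a stress-response protein linked to DNA demethylation, changed these genes. In SKO+shBrg1 against SKO, 0 of the 9 genes were called higher (0.00455% of all genes) or lower (0.0%), with log2 differences from -0.33 in Il7r to 0.23 in Ttyh1. In SKO-L80A+Vc against SKO-L80A, 0 were called higher (0.0%) or lower (0.46%). There 8 of the 9 genes were below SKO-L80A in both columns, by up to 0.88 on the log2 scale in Kcnk7, but the median of all genes was at -0.49, and relative to it the 9 genes ran from -0.39 in Kcnk7 to 0.65 in Il7r. In SKO-L80A+Ga against SKO-L80A, 0 were called higher or lower (0.0% of all genes in each direction), and relative to the all-gene median, at -0.25, they ran from -0.37 in Il7r to 0.30 in Gm17349. E330017A01Rik was at 0.12 in column 1 and -1.17 in column 2 of that comparison. With 1 library each, these values do not show that the genes act alike in the compared conditions.

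Among themselves, the 9 genes had Pearson correlations over the 10 conditions between 0.30 and 0.98, with a median of 0.73 over the 36 pairs, on log2 values relative to the median of each library. The conditions share libraries and the genes were chosen on 3 of them, so these values only describe the profiles. Gm17349 (0.99), Ttyh1 (0.96) and Kcnk7 (0.96) were closest to the median profile of the 9 genes and Il7r (0.47) was farthest from it. Outside the 9 genes, of 704 genes that reached the minimum signal and spanned at least 2-fold, the profiles most like this median included those of Klra2 (r = 0.97), Filip1 (0.95), Pcyt1b (0.94) and Mroh6 (0.93). Klra2 had a mean of 0.967 in Flag, 3.90 in the Oct4-labelled library, 0.454 in Oct4-L80A and 8.35 in SKO. The gene most like Il7r was Pou5f1 (r = 0.71), which encodes a factor delivered to the cells, so this likeness may not concern open chromatin. The gene most like E330017A01Rik was Ttyh1 (r = 0.98).

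The genes do not lie together in the genome. Pipox and 1700012B07Rik share chromosome 11 and the others with coordinates lie on separate chromosomes. Their lengths ran from 3142 bases in E330017A01Rik to 64121 bases in Il34, against a median of 17444 bases over 21296 matched genes. The nearest genes of the table, 2 on each side of the 8 genes with coordinates, were followed as well. Of these 32 neighbours, 0 were higher in the Oct4-labelled library than in Flag, 1 was higher in SKO than in Klf4 and 0 were lower in Oct4-L80A than in the Oct4-labelled library. The shares of all genes in these comparisons were 0.355%, 5.45% and 0.769%, and the neighbours' counts lie near them. Their median difference between SKO and Klf4 was 0.48, and -0.02 relative to all genes. The 1 neighbour was Sez6, a neuronal gene 36715 bases from Pipox, with 15.1 and 12.5 in SKO and a difference from Klf4 of 1.58, or 1.08 relative to all genes. Gm813, 18284 bases from E330017A01Rik, stayed between 0.192 and 1.42 in Flag, Sox2, the Oct4-labelled library, Oct4-L80A, SKO and SKO-L80A, below the minimum signal throughout. Its highest values, 0.664 and 1.42, were in the Oct4-labelled library, with log2 differences of 0.99 from Flag and 1.08 from Sox2. Oct4-L80A against that library was at -1.29. Pcnx3 and Map3k11, both neighbours of Kcnk7, overlap only from 5688411 to 5689003 on chromosome 19. They had almost the same signal, such as 50.3 and 31.0 in SKO for both. The 32 neighbours may therefore not all be separate measurements.

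**Figure D4:**
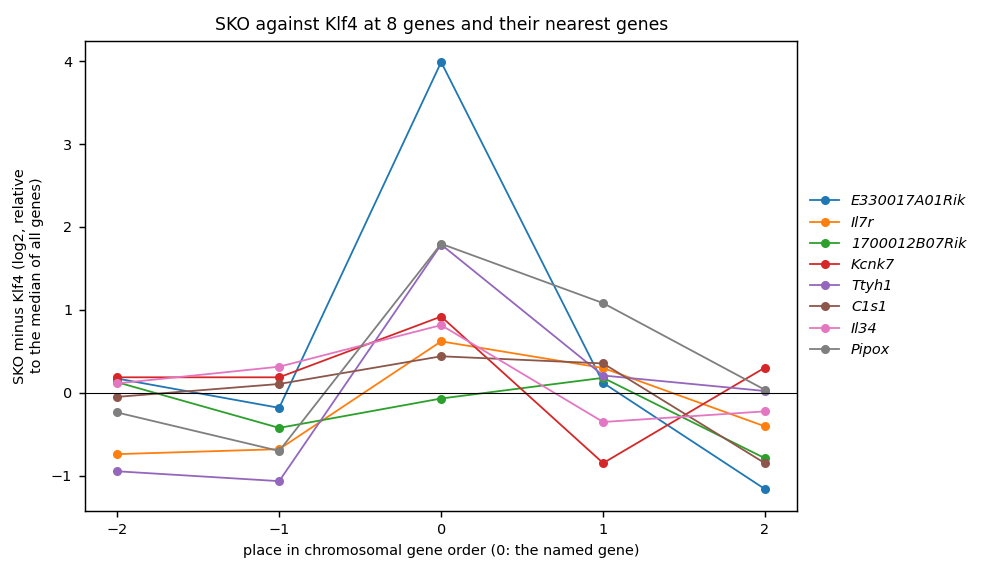
Log2 difference between SKO and Klf4 minus the median of all genes (vertical axis) at the 8 genes with coordinates (place 0) and at the 2 nearest genes of the table on each side in chromosomal order (horizontal axis), with a line for each of the 8 regions. E330017A01Rik (3.99), Pipox (1.80) and Ttyh1 (1.79) stand above their neighbours, and Sez6, at place 1 beside Pipox, has 1.08.

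The partners of these proteins were counted in 6 lists chosen by pathway or family. Il34 acts through Csf1r, the receptor it shares with Csf1. Csf1r had 5.26 and 8.04 in Flag, 7.84 and 8.26 in Sox2, 4.36 and 6.01 in Klf4, 15.9 and 12.4 in the Oct4-labelled library, 5.34 and 8.03 in Oct4-L80A, 22.5 and 12.5 in SKO and 18.7 and 13.8 in SKO-L80A. The ligand gene and the receptor gene were therefore both higher in the Oct4-labelled library, SKO and SKO-L80A than in Flag, Klf4 and Oct4-L80A. Ptprz1 and Sdc1, from the same list, had log2 differences of -0.06 and 0.11 between the Oct4-labelled library and Flag. In SKO against Klf4 these genes had 0.21 and -0.09 relative to all genes. Csf1r was called higher in SKO than in Klf4 (log2 difference 1.69, 1.19 relative to all genes). The other ligand gene, Csf1, had 12.3 and 13.5 in the Oct4-labelled library against 10.4 and 15.3 in Flag. Of the 15 genes of this list, 1 was higher in the Oct4-labelled library than in Flag (Csf1r, 0 relative to all genes), where 0.355% of all genes were. In SKO against Klf4, 2 were higher, Csf1r and Csf1, where 5.45% of all genes were, and 1 of them relative to all genes, where 0.651% were. The list's median in SKO against Klf4 was 0.41, beside 0.50 for all genes.

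Of the 17 genes of the complement list, 2 were called higher in SKO than in Klf4, where 5.45% of all genes were. Relative to all genes 0 were called, where 0.651% of all genes were. The median of the list was 0.45, or -0.05 relative to all genes. Serping1, the C1 inhibitor that acts on C1s, was called with a log2 difference of 1.28, or 0.78 relative to all genes. C1ra, the partner protease next to C1s1, had 3.37 and 3.47 in the Oct4-labelled library and 1.96 and 2.91 in Flag, all of them short of the minimum. In Sox2 it had 0.941 and 2.65. The Oct4-labelled library against Sox2, the contrast in which C1s1 stood out, was at 1.04 in C1ra, or 0.70 relative to all genes. The nearby genes C1rb and C1rl had 0.55 and 0.53 there, beside an all-gene median of 0.34.

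The remaining lists are given beside the same shares of all genes, 0.355% and 5.45%. Of the 19 genes of common gamma chain receptors, ligands and kinases around Il7r, 0 were called between the Oct4-labelled library and Flag or between SKO and Klf4. Il2rg, the partner chain of Il7r, had 0.345 and 0.461 in the Oct4-labelled library against 0.561 and 0.656 in Flag. The ligand gene Il7 had 7.77 and 14.8 against 6.42 and 13.6, Tslp had 4.56 and 7.92 against 3.97 and 6.83, and Crlf2, with which Il7r forms the Tslp receptor, had 27.4 and 28.0 against 22.3 and 30.0. Of the 13 other two-pore potassium channel genes, 0 were higher in the Oct4-labelled library than in Flag and 1, Kcnk4, was higher in SKO than in Klf4. Of 14 tweety and other anion channel genes the counts were 0 and 1 (Ttyh2, 1.19), and of 22 genes of sarcosine, glycine and lysine breakdown 0 and 3 (Sardh, Gldc and Cat). In these 3 families 0 genes were called higher in SKO than in Klf4 relative to all genes.

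Marker genes of other cell types were checked because Il7r is known from lymphoid cells and Il34 acts on macrophages. Of 6 macrophage markers, Ptprc, Adgre1, Itgam and Spi1 had at most 2.42 in Flag, the Oct4-labelled library and SKO. Cd68 had 1.95 and 3.17 in Flag, 2.33 and 2.61 in the Oct4-labelled library and 6.91 and 4.24 in SKO, and Csf1r alone reached the minimum in the Oct4-labelled library. The summed macrophage signal was 9.85 and 14.2 in Flag, 22.4 and 18.7 in the Oct4-labelled library, and 34.2 and 20.2 in SKO, and most of it was Csf1r. Of 6 markers of T cells and lymphoid progenitors, 0 reached the minimum in Flag, in the Oct4-labelled library and in SKO, with summed signals of 9.41 and 10.6, 10.4 and 11.4, and 12.4 and 10.5. Of 6 fibroblast markers 4 or 5 reached it in every condition, in cells that the label names as embryonic fibroblasts. Of 6 markers of pluripotent cells 1, Fbxo15, reached it in every condition, Flag included, and Nanog had 0.557 and 1.12 in the Oct4-labelled library. The minimum is the median of all values, and the sums were not scaled for the library. The part of other cell types in the signal of the 9 genes was not tested beyond these values.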

How the data were processed

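ATAC-seq was measured in 10 libraries, 1 per condition. The authors deposited a signal per gene for 21965 genes in 20 columns, 2 per condition, and all 20 were used. Per the submitters' processing notes the build was mm10, and the tools named were Bowtie2 2.2.5, Trimmomatic 0.35, deepTools, MACS2 2.1.0, cutadapt 1.13, DESeq2 1.22.2, Picard, bedtools 2.25.0 and SAMtools 1.3.1. Their roles, the window counted and the scaling were not given in the sources used here. Read depth is unknown, so no counting interval was computed.

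Both columns of a condition were treated as repeat measurements of 1 sample. Differences were computed with Python 3.11.15, numpy 2.4.6 and pandas 2.3.3 as log2(signal + 0.138), where 0.138 is the 10th percentile of values above 0. A gene was called at 2-fold or more where the higher value reached 6.92, the median of all values. No significance test was possible with 1 library per condition. The procedure was tested on simulated data. The result of 1 gene is not reported here. All 9 genes were named, with the genes most like their profile, their 2 neighbours on each side, and list genes past the size rule. The members and lists were chosen with earlier results of these data known. The comparison of 10 with 4 columns and the composite motif were added after the data were seen. Symbols were matched to RefSeq (GRCm38.p6): 7 by symbol, 1 by synonym. As alternatives, the pseudocount was made 4 times larger or smaller, the minimum signal was dropped, differences were taken relative to all genes, columns were quantile normalised, and each column was used alone.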

Additional observations from a re-analysis of the deposited data

How the results depend on the processing

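The counts of genes called in each comparison stayed within 1.5 times their value, or at 0, under most of the 7 alternatives. The exceptions were as follows. Without a minimum signal, 2 of the 9 genes were higher in Sox2 than in Flag, where the count was 0, 2 in place of 1 were higher in Klf4 than in Flag, and 1 in place of 0 was higher in Oct4-L80A than in Flag. With column 1 alone, 0 in place of 1 were higher in Klf4 than in Flag. With column 2 alone, 1 in place of 0 was lower in SKO-L80A+Ga than in SKO-L80A. In SKO against Klf4 the count of 6 became 7 without a minimum, 8 with column 1, and 4 with column 2, quantile normalisation or differences relative to all genes. In Oct4-L80A against the Oct4-labelled library it was 9, or 8 with either column alone. Of 117 single differences, 15 had the opposite sign after quantile normalisation, 12 with column 2 alone, 11 relative to all genes, 9 with column 1 alone and 1 with the larger pseudocount. The cause was not tested. Depth is unknown, and with 1 library per condition the spread between samples is too.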
